A study of Saccharomyces cerevisiae with 18 samples.

Results

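This account follows the small nucleolar and other stable noncoding RNAs of budding yeast, Saccharomyces cerevisiae, through aging and through loss of a pair of stress transcription factors. They were taken as every row of the count table whose identifier or symbol began with snR and a number, together with LSR1, NME1, RPR1 and SCR1, which gave 85 of 7118 features. TLC1, the telomerase RNA, was also on the list but had no row that matched it and was not analysed here. The annotation of the reference genome placed the 85 RNAs in 47 box C/D small nucleolar RNAs (snoRNAs), 29 box H/ACA snoRNAs, 6 spliceosomal small nuclear RNA (snRNA) entries and 3 others, and these classes were the same as those written from textbook knowledge.

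The 3 strains were harvested aged and young, with 3 libraries in each of 6 groups. The double deletion (MAT@ msn2::HphNT1 msn4::NatNT2, here msn2∆msn4∆) was labelled as carrying marker cassettes at MSN2 and MSN4, the transcription factor genes of the general stress response; the single deletion (MAT@ msn2::HphNT1, here msn2∆) at MSN2 alone; the wild type (MAT@, here WT) carried both. Aged cells were biotin-labelled mother cells held on a magnet through 24 h of growth in the Ministat Aging Device, a vessel flushed with fresh medium that washes daughters away. Young cells were exponentially growing cells, and all groups grew in SC YNB without biotin, with 2% Glucose, 2% MMP and DAPA, at pH 4.5. Each genotype was represented by 1 strain, and no label states that replicates came from separate cultures, so the p-values given here reflect differences among these libraries only, and that spread may be technical. Library totals were 4078400 to 7136185 counts in aged msn2∆msn4∆ and 25768602 to 41649952 counts in all other groups. MSN2 averaged 4.30 ± 0.603 CPM (counts scaled to library size) in aged msn2∆msn4∆, 4.10 ± 0.447 CPM in aged msn2∆, 3.58 ± 0.933 CPM in young msn2∆msn4∆ and 4.28 ± 0.133 CPM in young msn2∆, against 33.4 ± 1.83 CPM in aged WT and 41.8 ± 2.87 CPM in young WT (SD, n = 3 each). MSN4 averaged 13.4 ± 1.28 CPM in aged and 21.4 ± 3.02 CPM in young msn2∆msn4∆, against 51.5 ± 2.38 CPM in aged and 42.6 ± 2.77 CPM in young WT, and 84.1 ± 2.43 CPM in aged and 50.6 ± 5.78 CPM in young msn2∆, which carries MSN4 (SD, n = 3 each). Reads assigned to MSN4 thus remained in msn2∆msn4∆, and whether they lie in the deleted part cannot be read from counts per gene.

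Box C/D snoRNAs guide methylation of the ribose of chosen ribosomal RNA (rRNA) bases, and box H/ACA snoRNAs guide the change of uridine to pseudouridine; a few act instead in the cleavage of the rRNA precursor. The spliceosomal snRNAs form the core of the particles that remove introns. SCR1 is the RNA of the signal recognition particle, RPR1 that of RNase P, which trims tRNA precursors, and NME1 that of RNase MRP, which cuts the rRNA precursor. Mature forms of these RNAs end without a poly(A) tail, and short tails are added to their precursors or to copies marked for degradation in the nucleus. The libraries were made from polyA RNA, so the counts describe tailed forms and RNA carried through the selection, and not the abundance of the mature RNAs.

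The 6 snoRNA sequences below have age differences that were called in the same direction under both ways of scaling the libraries described further on. Every rise called with the scaling used for fold changes below was also called with the other. The second scaling thus selected among falls alone. The first set holds the snoRNAs that fell with age in all strains by both scalings. The second holds the snoRNAs with the largest called rises in aged WT. By both scalings snR30, snR42, snR56, snR82 and snR86 rose in WT too. They are written 5′ to 3′ as DNA from the RefSeq assembly of build R64, in lower case, with box C (TGATGA) and box D (CTGA) of C/D snoRNAs and the ACA trinucleotide of the H/ACA snoRNA snR49 in capitals. snR49 lies at chrXIV:716120-716284 on the plus strand, snR66 at chrXIV:586090-586175 on the plus strand and snR67 at chrV:61352-61433 on the plus strand. snR38 lies at chrXI:283185-283279 on the plus strand inside an intron of TEF4, snR47 at chrIV:541602-541700 on the minus strand and snR60 at chrX:349130-349233 on the minus strand.
snR49: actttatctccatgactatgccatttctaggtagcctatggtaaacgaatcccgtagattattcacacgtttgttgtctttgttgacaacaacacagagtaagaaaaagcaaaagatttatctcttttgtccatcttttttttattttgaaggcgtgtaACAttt
snR66: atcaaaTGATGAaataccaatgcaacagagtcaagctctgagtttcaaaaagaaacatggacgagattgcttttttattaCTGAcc
snR67: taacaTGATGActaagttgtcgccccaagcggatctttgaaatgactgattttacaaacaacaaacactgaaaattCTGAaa
snR38: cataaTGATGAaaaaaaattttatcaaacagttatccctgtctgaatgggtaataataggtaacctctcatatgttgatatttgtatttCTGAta
snR47: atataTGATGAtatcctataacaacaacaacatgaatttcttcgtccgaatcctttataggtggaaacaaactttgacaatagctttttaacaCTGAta
snR60: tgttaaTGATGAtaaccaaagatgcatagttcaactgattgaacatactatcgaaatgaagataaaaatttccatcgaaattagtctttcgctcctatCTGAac
Of the 47 C/D snoRNAs, 36 held TGATGA in their first 20 bases and 45 held CTGA in their last 20 bases, against 0.925% and 5.89% of all windows of 20 bases on both strands of the nuclear chromosomes. The trinucleotide ACA stood in the last 8 bases of 17 of the 29 H/ACA snoRNAs, against 9.75% of all windows of 8 bases.

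The guide stretches of the C/D snoRNAs shown can be read against the rRNA. The base that lies 5 bases before a CTGA box pairs with the base to be methylated, and each stretch below is the run of Watson-Crick pairs around it, up to the box, with that base in capitals in both strands. Sites are given for the first of the annotated rDNA copies, on the minus strand of chromosome XII.
snR66 guide: agagtcAagct
snR66 site in 25S rRNA at position 2417, chrXII:452759-452769: agctTgactct
snR67 guide: acactgaAaat
snR67 site in 25S rRNA at position 2724, chrXII:452451-452461: attTtcagtgt
snR38 guide: cagttatcCctgt
snR38 site in 25S rRNA at position 2815, chrXII:452359-452371: acagGgataactg
snR47 guide: agcttttTaac
snR47 site in 18S rRNA at position 619, chrXII:457107-457117: gttAaaaagct
snR60 guide: gcatagTtca
snR60 site in 25S rRNA at position 817, chrXII:454359-454368: tgaActatgc
The annotation gave 100 rRNA sites for the members, and the annotated base matched the reference base at 96 of the 99 sites for which it names one. Of the 43 C/D snoRNAs with a site, 27 had a run of at least 9 pairs placed in this way before an exact CTGA box. By target, 18 snoRNAs had sites in 18S rRNA alone and 45 in 25S rRNA alone, and the median log2 fold change of aged over young WT was -0.45 over those for 18S and -0.37 over those for 25S.

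All 85 RNAs were detected in every library and passed the filter on low counts, but most were rare. Their mean levels over the 18 libraries ran from 0.564 CPM for snR73 to 106 CPM for snR44, with a median of 5.09 CPM, against a median of 37.6 CPM over all features. The lowest count was 0.5, of snR6 in 1 aged msn2∆msn4∆ library, and the highest 5123. Per length, snR44 stood first in every group, at 311 ± 34.6 CPM per kb in aged msn2∆msn4∆, 407 ± 95.0 in aged msn2∆ and 439 ± 53.9 in aged WT, against 597.5 ± 90.7 in young msn2∆msn4∆, 698 ± 59.4 in young msn2∆ and 563 ± 100 in young WT (SD, n = 3 each). snR67, snR63, snR87 and snR33 followed, with 216, 214, 184 and 160 CPM per kb over all libraries, and snR31, snR33, snR44, snR63, snR67 and snR87 were among the first 10 in all 6 groups. The lowest levels per length were those of snR81 with 4.43, snR73 with 5.32, snR19 with 6.87 and snR6 with 7.90 CPM per kb. U1 and U6, the snRNAs snR19 and snR6, thus stood at the foot of the order in these polyA libraries. snR44 alone supplied 7.48% to 13.9% of the counts of the 85 RNAs in a library.

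The summed level of the 85 RNAs depended on how the libraries were scaled. With trimmed mean of M values (TMM) factors, which set the typical feature equal between libraries, it was 792, 873 and 645 CPM in aged msn2∆msn4∆, against 1086, 916 and 768 CPM in young msn2∆msn4∆. It was 731, 700 and 932 CPM in aged msn2∆, against 1162, 1216 and 1075 CPM in young msn2∆, and 740, 796 and 683 CPM in aged WT, against 823, 1033 and 831 CPM in young WT. The aged libraries thus lay below the young ones in msn2∆ and WT, while in msn2∆msn4∆ the groups overlapped. With library totals the order of the group means turned: they were 930.4 CPM by library totals in aged against 821.4 in young msn2∆msn4∆, 975.9 in aged against 950.2 in young msn2∆, and 836.5 in aged against 709.1 in young WT. The libraries of aged and young WT did not overlap on this scale, whereas those of msn2∆msn4∆ and of msn2∆ did. In msn2∆ the 85 RNAs took 0.0933%, 0.0885% and 0.111% of the total in aged cells against 0.0950%, 0.0979% and 0.0922% in young cells, so aged replicate 3 alone lay above the young libraries and set the order of the means. The scaling mattered because library totals in place of TMM factors raised the log2 fold change of the median feature by 0.43 in msn2∆msn4∆, 0.59 in msn2∆ and 0.51 in WT. Fold changes are given below with TMM factors, that is, relative to the typical feature. Values by library totals are given for only part of the directions and calls that they change, so a TMM value given alone may change too. Summed counts of tRNA features, also transcripts without a poly(A) tail, were 98.6 to 221 CPM in the aged and 202 to 408 CPM in the young libraries; the part of carry-over in the age differences was not tested.

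**Figure D1:**
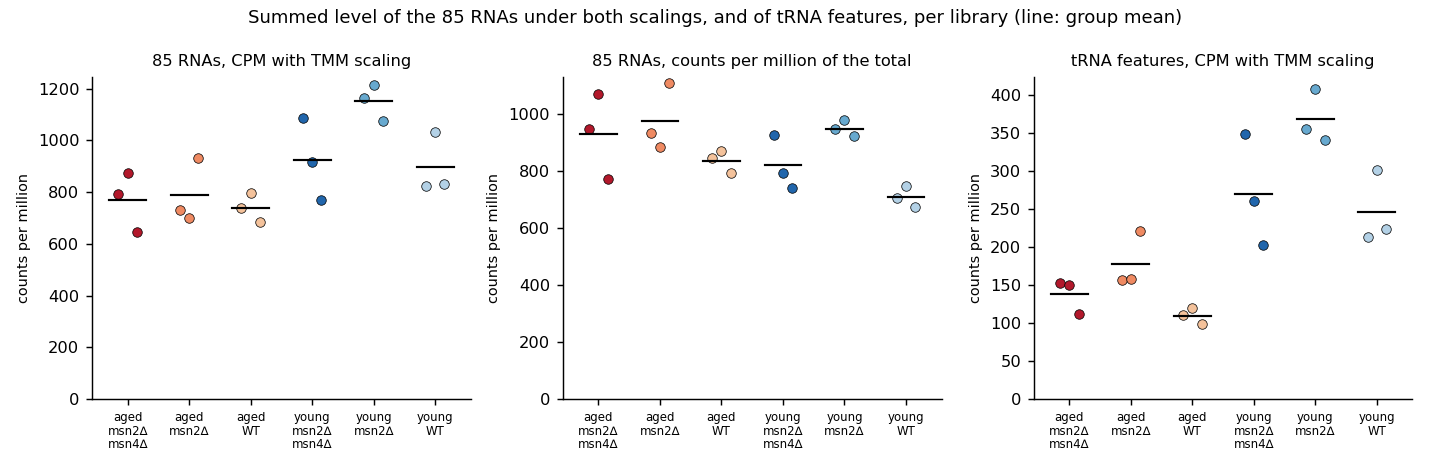
Summed level of the 85 RNAs per library with TMM scaling (left) and with library totals (middle), and summed level of tRNA features with TMM scaling (right), in CPM; points are libraries and lines are means of 3. Aged libraries lie below young ones on the left in msn2∆ and WT, while in the middle the aged libraries lie above the young ones in WT and overlap them in the other strains.

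Aged and young cells were compared within each strain across all 6833 features that passed the filter (edgeR quasi-likelihood test, Benjamini-Hochberg adjusted p under 0.05). In msn2∆msn4∆, 7 of the 85 RNAs were higher and 22 lower in aged cells, where 61.2% of all features passed, 31.2% higher and 29.9% lower. In msn2∆, 3 were higher and 46 lower, where 69.6% of all features passed, 36.6% higher and 33% lower. In WT, 10 were higher and 38 lower, where 63.9% of all features passed, 33.3% higher and 30.6% lower. The median log2 fold change of the 85 RNAs was -0.21 in msn2∆msn4∆, -0.45 in msn2∆ and -0.44 in WT, while that of all features was 0.03 in each strain. With library totals the split turned, to 24 higher and 10 lower in msn2∆msn4∆, 21 higher and 9 lower in msn2∆ and 27 higher and 7 lower in WT. Over all features, library totals gave 4104 higher and 827 lower in msn2∆msn4∆, 4927 and 645 in msn2∆ and 4753 and 598 in WT. Called the same way by both scalings were 7 higher and 10 lower RNAs in msn2∆msn4∆ (31.2% and 12.1% of all features), 3 and 9 in msn2∆ (36.6% and 9.44%), and 10 and 7 in WT (33.3% and 8.75%). Every feature higher with TMM factors was also higher with library totals, 2135 in msn2∆msn4∆, 2501 in msn2∆ and 2272 in WT. For age effects, agreement of the scalings thus selected among falls and not among rises. The counts and shares over all features given here are the background for each class and gene list counted below.

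With TMM factors 19 RNAs were lower in aged cells of all 3 strains: 8 C/D snoRNAs, 10 H/ACA snoRNAs and the U4 snRNA snR14. That is 19 of 85 RNAs, while 21.0% of all features tested were lower in all strains and 20.6% higher. SCR1 was the single RNA higher in all 3 strains, and snR19, snR38, snR82 and snR86 were higher in 2 of them. None was called higher in one strain and lower in another, and 17 passed in no strain. snR49, snR66 and snR67 were lower in all 3 strains, and SCR1 higher, by both scalings. Thinned to the smallest library total, the number called was 32 in msn2∆ and 22 in WT. Of 9 genes expressed in daughter cells, 2 were higher and 2 lower in aged msn2∆msn4∆, 4 lower in aged msn2∆, and 5 higher and 1 lower in aged WT with TMM factors, and 7, 7 and 8 higher and none lower with library totals. The part of daughter cells in the age differences was not tested.

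**Figure D2:**
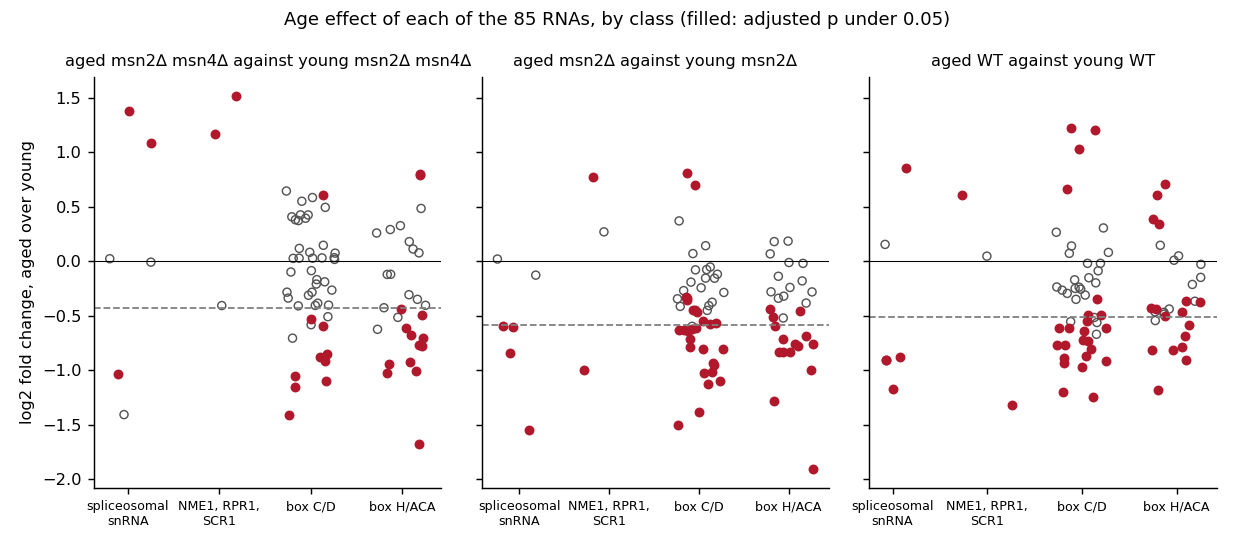
Log2 fold change of aged over young cells for each of the 85 RNAs, by class, in msn2∆msn4∆ (left), msn2∆ (middle) and WT (right); filled points passed at an adjusted p under 0.05, and the dashed line marks where 0 would lie with library totals. Most filled points lie below 0 in every strain, and SCR1 is the highest point of its class in all 3.

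Among the spliceosomal snRNAs, reads of U1 were higher in aged msn2∆msn4∆ and WT, reads of U2 higher in aged msn2∆msn4∆, and reads of U4 lower in aged cells of each strain with TMM factors. snR19, the U1 snRNA that recognises the start of introns, read 5.51, 7.19 and 7.40 CPM in aged msn2∆msn4∆, against 2.92, 2.57 and 2.21 CPM in young msn2∆msn4∆. It read 4.43, 3.97 and 3.87 CPM in aged WT, against 2.90, 2.01 and 1.85 CPM in young WT. In both strains every aged library lay above every young one, with log2 fold changes of 1.38 ± 0.20 (SE) and 0.85 ± 0.17 (edgeR adjusted p = 7.38e-06 and 0.000297), and both scalings called it. In msn2∆ the groups overlapped, at 3.71, 3.92 and 4.12 CPM in aged and 3.85, 3.37 and 4.39 CPM in young cells. There snR19 did not pass with TMM factors, but library totals called it higher. Thinned to the smallest total, the WT value of snR19 was 0.25 and did not pass (edgeR adjusted p = 0.637).

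LSR1, the U2 snRNA that pairs with the branch point, read 23.6, 33.2 and 21.7 CPM in aged msn2∆msn4∆, against 12.8, 9.71 and 13.8 CPM in young msn2∆msn4∆. All aged libraries lay above all young ones, at 1.09 ± 0.16 on the log2 scale (edgeR adjusted p = 1.24e-05), and both scalings called it. In msn2∆ and WT the changes were -0.13 ± 0.14 and 0.15 ± 0.15 and did not pass; with library totals they were 0.46 and 0.66 and passed.

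snR14, the U4 snRNA, read 4.10, 5.59 and 4.23 CPM in aged msn2∆msn4∆, against 11.8, 9.95 and 6.13 CPM in young msn2∆msn4∆. It fell by 1.03, 0.84 and 0.88 on the log2 scale in msn2∆msn4∆, msn2∆ and WT (SE 0.27, 0.20 and 0.20), with no overlap of libraries; library totals called it in msn2∆msn4∆ alone. snR6, the U6 snRNA of the catalytic centre, read 0.702, 0.423 and 0.702 CPM in aged msn2∆, against 1.53, 2.19 and 1.63 CPM in young msn2∆. It fell by 1.55 ± 0.32 there by both scalings, and by 1.17 ± 0.35 in WT with TMM factors alone; in msn2∆msn4∆, on counts of 0.5 to 5 in the aged libraries, the value was -1.41 ± 0.65 and did not pass, but passed without young replicate 3 (-1.73) or aged replicate 1 (-2.48). U5 is annotated as a long and a short form, snR7-L and snR7-S, that share 179 bases and had nearly the same counts, so they are 1 measurement. It fell by 0.60 ± 0.18 in msn2∆ and by 0.91 ± 0.19 in WT, which library totals did not call, and stood at -0.01 ± 0.23 in msn2∆msn4∆.

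**Figure D3:**
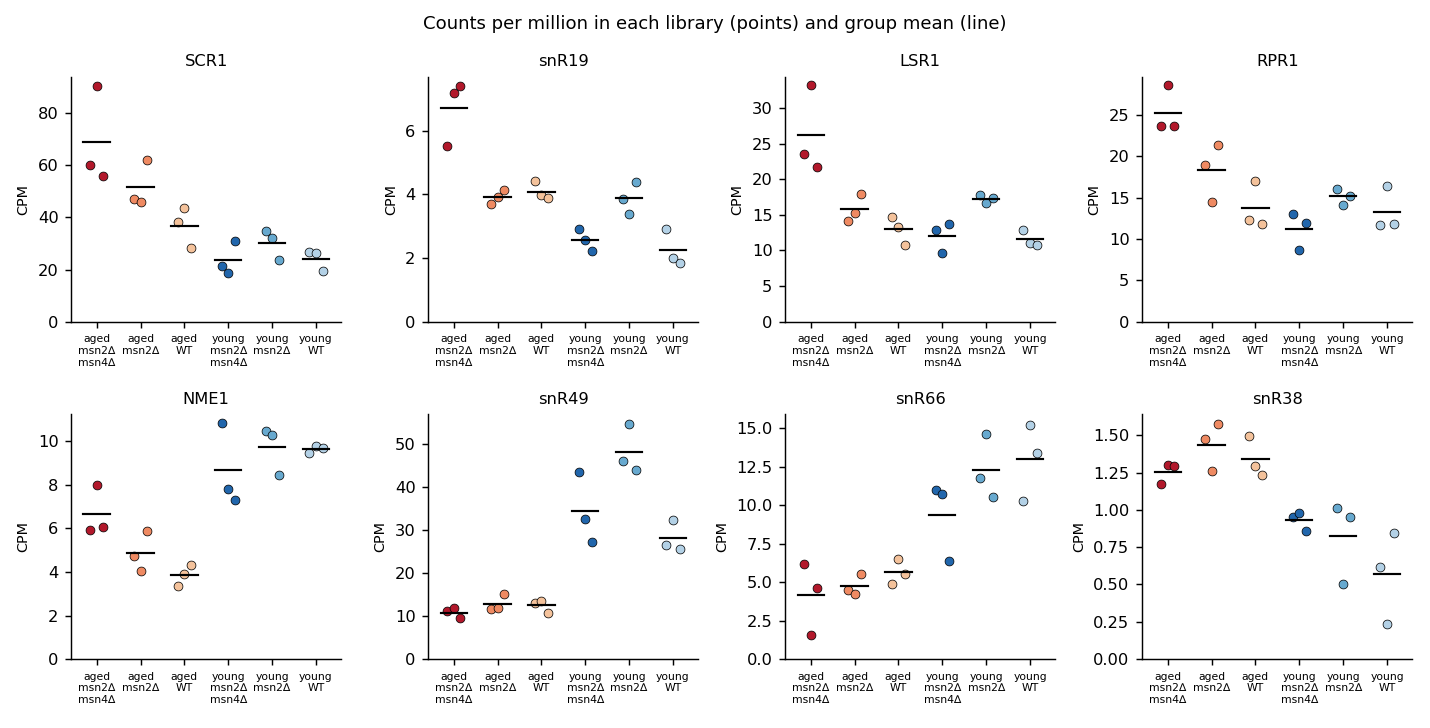
CPM of SCR1, snR19, LSR1, RPR1, NME1, snR49, snR66 and snR38 in each of the 18 libraries (points) with group means (lines), aged groups at the left of each panel. SCR1 is higher in aged than in young cells of each strain, snR49 and snR66 are lower, and LSR1 and RPR1 stand apart in aged msn2∆msn4∆.

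SCR1 rose with age in every strain. It read 60.2, 90.3 and 56.1 CPM in aged msn2∆msn4∆, against 21.3, 18.9 and 30.9 CPM in young msn2∆msn4∆. It read 47.3, 46.0 and 61.9 CPM in aged msn2∆, against 34.8, 32.0 and 23.6 CPM in young msn2∆, and 38.4, 43.8 and 28.4 CPM in aged WT, against 26.6, 26.5 and 19.3 CPM in young WT. No aged library overlapped a young one of its strain. The log2 fold changes were 1.52 ± 0.22, 0.78 ± 0.20 and 0.61 ± 0.21 in msn2∆msn4∆, msn2∆ and WT (edgeR adjusted p = 7.35e-06, 0.00207 and 0.0142). In WT the call was lost without young WT replicate 3 (0.47, edgeR adjusted p = 0.0804) or aged WT replicate 2 (0.47, adjusted p = 0.0777).

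Most mRNAs for the protein subunits of the signal recognition particle were not called higher. Of 6, 1 was higher and 3 lower in aged msn2∆msn4∆, and 1 higher and 4 lower in both aged msn2∆ and aged WT; with library totals 2 were higher and 2 to 3 lower. SRP54, the subunit that binds signal peptides, rose by 0.54 ± 0.11, 0.49 ± 0.11 and 0.41 ± 0.11 in msn2∆msn4∆, msn2∆ and WT. SRP21 fell by 1.35 ± 0.19, 1.29 ± 0.19 and 1.64 ± 0.19.

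RPR1 and NME1 are related RNAs that share most of their protein subunits, and RPR1 rose in msn2∆msn4∆ while NME1 fell in msn2∆ and WT. RPR1 read 23.6, 28.6 and 23.6 CPM in aged msn2∆msn4∆, against 13.0, 8.62 and 11.9 CPM in young msn2∆msn4∆, a rise of 1.17 ± 0.19 on the log2 scale with no overlap (edgeR adjusted p = 3.22e-05) that both scalings called. In msn2∆ and WT its changes were 0.27 ± 0.17 and 0.05 ± 0.17 and did not pass; without aged msn2∆ replicate 2 the msn2∆ value was 0.41 and passed; with library totals they were 0.86 and 0.56 and passed. NME1 read 4.74, 4.04 and 5.89 CPM in aged msn2∆, against 10.5, 10.3 and 8.46 CPM in young msn2∆, and 3.35, 3.90 and 4.30 CPM in aged WT, against 9.48, 9.81 and 9.70 CPM in young WT. It fell by 1.00 ± 0.16 and 1.32 ± 0.16 there (edgeR adjusted p = 1.56e-05 and 1.41e-06) by both scalings, and stood at -0.41 ± 0.20 in msn2∆msn4∆ (adjusted p = 0.0791), which passed without young replicate 3 or aged replicate 2 (both -0.53). snR66 begins 163 bases past the end of NME1 on the same strand. It read 6.21, 1.598 and 4.64 CPM in aged msn2∆msn4∆ against 10.99, 10.7 and 6.41 CPM in young, 4.47, 4.25 and 5.53 CPM in aged msn2∆ against 11.8, 14.6 and 10.5 CPM in young, and 4.86, 6.49 and 5.57 CPM in aged WT against 10.3, 15.2 and 13.4 CPM in young. No groups overlapped, and it fell by 1.06 ± 0.30, 1.38 ± 0.22 and 1.2 ± 0.22. Of the 11 mRNAs for RNase P and MRP proteins, 4 were higher and 6 lower in aged msn2∆msn4∆, 4 and 7 in aged msn2∆, and 1 and 7 in aged WT; with library totals 5 were higher and 4 lower, 4 and 4, and 4 and 5. RPR2, a subunit of RNase P alone, rose by 0.93 ± 0.13, 0.73 ± 0.11 and 0.57 ± 0.11, whereas SNM1, a subunit of RNase MRP alone, fell by 0.97 ± 0.16, 1.17 ± 0.14 and 1.11 ± 0.14. With TMM factors RPR2 thus rose also in msn2∆ and WT, where RPR1 did not pass. SNM1 fell also in msn2∆msn4∆, where NME1 did not pass.

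The aged msn2∆msn4∆ libraries, in which SCR1, RPR1, LSR1 and snR19 were highest, also had higher CPM of 18S and 25S rRNA, which have no poly(A) tail. RDN18-1, an 18S rRNA gene, read 9.89 to 12.3 CPM in aged msn2∆msn4∆, 1.56 to 2.02 CPM in aged msn2∆ and 1.51 to 1.94 CPM in aged WT, against 0.372 to 0.823 CPM in the young groups. RDN25-1, a 25S rRNA gene, read 4.85 to 6.06 CPM in aged msn2∆msn4∆ and 1.91 to 2.76 CPM in the other aged groups, against 0.896 to 1.93 CPM in the young groups. RDN5-1, a 5S rRNA gene, read 151 to 256 CPM in all aged groups, against 3.98 to 6.96 CPM in the young groups. It did not set aged msn2∆msn4∆ apart, where it read 176 to 189 CPM, and neither did the sum of all rDNA features, at 505 to 559 CPM in aged msn2∆msn4∆ and 412 to 692 CPM over all aged libraries. These libraries were also the smallest, and the part of either difference in the values of the 4 RNAs was not tested.

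Box C/D snoRNAs that passed were more often lower than higher in aged cells with TMM factors, and more often higher with library totals. Of 47, 1 was higher and 9 lower in aged msn2∆msn4∆, 2 higher and 26 lower in aged msn2∆, and 4 higher and 20 lower in aged WT, with median log2 fold changes of -0.17, -0.45 and -0.35. Library totals gave 12 higher and 4 lower, 10 and 4, and 14 and 4, with medians of 0.27, 0.14 and 0.15. Of all 6833 features, TMM factors called 31.2%, 36.6% and 33.3% higher and 29.9%, 33% and 30.6% lower. Library totals called 4104, 4927 and 4753 of them higher and 827, 645 and 598 lower. Called by both scalings were 1 higher and 4 lower, 2 and 4, and 4 and 4. snR67, which guides methylation of 25S rRNA, read 14.3, 13.2 and 9.22 CPM in aged msn2∆msn4∆ against 23.5, 22.4 and 21.0 CPM in young, and fell by 0.88 ± 0.17, 0.95 ± 0.14 and 0.94 ± 0.14 in msn2∆msn4∆, msn2∆ and WT, with no overlap in any strain. snR53, which lies 265 bases past it and guides 18S rRNA, fell by 0.91 ± 0.29, 1.13 ± 0.21 and 1.25 ± 0.22, by TMM factors alone in msn2∆msn4∆. Thinned to the smallest total, the WT change of snR53 was -1.04 and did not pass (edgeR adjusted p = 0.0664).

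snR63, a guide for 25S rRNA and the third most abundant member per length, read 30.6, 30.6 and 24.4 CPM in aged msn2∆msn4∆ against 93.6, 78.9 and 53.5 CPM in young. It read 29.9, 31.2 and 34.4 CPM in aged msn2∆ against 91.9, 100.6 and 78.9 CPM in young, and 36.4, 41.5 and 40.9 CPM in aged WT against 54.2, 75.5 and 55.9 CPM in young. Aged libraries lay below young ones in each strain, at -1.41 ± 0.18, -1.51 ± 0.16 and -0.64 ± 0.16 (edgeR adjusted p = 1.57e-06, 1.01e-07 and 0.00138), and library totals did not call the WT value.

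A few C/D snoRNAs rose. snR38, a guide for 25S rRNA, read 1.47, 1.26 and 1.57 CPM in aged msn2∆ against 1.02, 0.504 and 0.950 CPM in young, and 1.497, 1.30 and 1.23 CPM in aged WT against 0.619, 0.236 and 0.848 CPM in young. The groups did not overlap, and it rose by 0.81 ± 0.28 and 1.22 ± 0.30 (edgeR adjusted p = 0.0132 and 0.00161); without young msn2∆ replicate 2 the msn2∆ value was 0.56 and did not pass (adjusted p = 0.099). snR60, which guides 25S rRNA, read 2.08, 2.26 and 2.30 CPM in aged WT against 0.929, 0.747 and 1.195 CPM in young WT, and snR47, which guides both rRNAs, read 19.0, 19.8 and 18.2 CPM against 7.32, 11.7 and 8.89 CPM. They rose by 1.204 ± 0.22 and 1.03 ± 0.19 in WT, with no overlap. In msn2∆msn4∆ and msn2∆ the changes with TMM factors were 0.65 ± 0.30 and 0.37 ± 0.21 for snR60 and 0.37 ± 0.23 and 0.07 ± 0.19 for snR47, and none passed. In these strains library totals raised the log2 fold change of the median feature by 0.43 and 0.59. Whether snR60 and snR47 passed on that scale is not given here. snR60 shares 49 bases with the open reading frame YJL047C-A on the same strand, so reads of the pair may not be separable.

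The U3 snoRNA, needed to cleave the rRNA precursor, comes from 2 near-identical genes, snR17a and snR17b, whose reads could be split between them by the counting. snR17a also shares 78 bases with the open reading frame IRC13 on the same strand. It rose by 0.61 ± 0.22 in aged msn2∆msn4∆ (edgeR adjusted p = 0.0205), and was -0.19 ± 0.18 and -0.15 ± 0.18 in msn2∆ and WT, where library totals turned the sign. The call in msn2∆msn4∆ was lost without young msn2∆msn4∆ replicate 2 or 3, or aged msn2∆msn4∆ replicate 1 or 2, with log2 values of 0.52, 0.53, 0.60 and 0.51. snR17b fell by 0.87 ± 0.25 in aged WT, which library totals did not call, and was 0.43 ± 0.31 and -0.24 ± 0.24 in msn2∆msn4∆ and msn2∆. snR128 and snR190, 69 bases apart and both tied to precursor cleavage or large subunit assembly, passed once in the 3 strains: snR128 fell by 0.56 ± 0.23 in msn2∆, where library totals gave 0.02 and leaving out young msn2∆ replicate 2 or 3 or aged msn2∆ replicate 1 or 2 ended the call, at -0.48, -0.58, -0.57 and -0.47.

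Box H/ACA snoRNAs held the largest single fall. Of 29, 2 were higher and 12 lower in aged msn2∆msn4∆, 15 lower in aged msn2∆, and 4 higher and 13 lower in aged WT, with medians of -0.43, -0.46 and -0.44 with TMM factors. Library totals gave 8 higher and 5 lower, 7 and 3, and 9 and 2, with medians of 0.01, 0.13 and 0.08. On that scale 4104, 4927 and 4753 of all 6833 features were higher and 827, 645 and 598 lower. Called by both scalings were 2 higher and 5 lower, 3 lower, and 4 higher and 2 lower. snR49, which guides pseudouridines in both rRNAs, read 11.2, 11.8 and 9.52 CPM in aged msn2∆msn4∆ against 43.7, 32.7 and 27.2 CPM in young. It read 11.7, 11.95 and 15.1 CPM in aged msn2∆ against 46.2, 54.7 and 44.0 CPM in young, and 13.2, 13.5 and 10.8 CPM in aged WT against 26.5, 32.5 and 25.8 CPM in young. Every aged library lay below every young one of its strain, and the young msn2∆ libraries all lay above the young WT ones. It fell by 1.68 ± 0.18, 1.91 ± 0.15 and 1.18 ± 0.15 (edgeR adjusted p = 3.52e-07, 2.01e-09 and 2.16e-06).

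snR33, a guide for 25S rRNA, read 22.9, 21.6 and 18.3 CPM in aged msn2∆msn4∆ against 52.3, 39.0 and 27.9 CPM in young, and 19.0, 18.1 and 24.7 CPM in aged msn2∆ against 42.3, 58.4 and 49.0 CPM in young. It fell by 0.92 ± 0.20 and 1.28 ± 0.17 by both scalings; in WT it fell by 0.43 ± 0.17 with TMM factors, whereas library totals gave 0.08 and the call was lost without young WT replicate 2 (-0.33) or aged WT replicate 1 (-0.46), 2 (-0.40) or 3 (-0.44). The longest snoRNA of the set, snR86 at 1004 bases, read 70.8, 103 and 56.4 CPM in aged msn2∆msn4∆ against 46.8, 39.3 and 44.9 CPM in young, and 56.2, 57.6 and 55.5 CPM in aged WT against 40.0, 36.9 and 34.3 CPM in young. It rose by 0.79 ± 0.17 and 0.61 ± 0.16 (edgeR adjusted p = 0.000502 and 0.0031) and stood at -0.02 ± 0.16 in msn2∆ with TMM factors. There library totals raised the log2 fold change of the median feature by 0.59. snR30, which is needed for 18S rRNA processing and is essential, was 0.18 ± 0.16, 0.19 ± 0.14 and 0.39 ± 0.14 with TMM factors. The WT rise passed (edgeR adjusted p = 0.0221), although aged and young WT libraries overlapped. That call was lost without young WT replicate 1 (0.28), young WT replicate 3 (0.31) or aged WT replicate 2 (0.28). snR10, which also acts in precursor cleavage, fell by 0.68 ± 0.22 in msn2∆msn4∆ and 0.83 ± 0.17 in msn2∆ with TMM factors alone; it shares 216 bases with the open reading frame YGL088W on the same strand. Without young msn2∆msn4∆ replicate 1 or aged msn2∆msn4∆ replicate 3 its first value was -0.51 and did not pass.

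Across the 85 RNAs, which share libraries and depth, Spearman's rho of length with the log2 fold change was 0.12 in msn2∆msn4∆, 0.15 in msn2∆ and 0.14 in WT. The 13 RNAs of at least 300 bases had medians of 0.43, -0.13 and 0.05, and the 36 under 110 bases -0.14, -0.45 and -0.35.

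The 8 snoRNAs cut from introns gave 1 lower in aged msn2∆msn4∆, 2 higher and 5 lower in aged msn2∆, and 1 higher and 1 lower in aged WT, and their hosts 3 higher and 4 lower, 3 and 4, and 1 and 4. With library totals the snoRNAs gave 2 higher and 1 lower, 3 and 0, and 4 and 0, and the hosts 4 and 1, 4 and 1, and 4 and 2. snR44, a guide for both rRNAs in an intron of RPS22B, a small subunit ribosomal protein gene, read 73.1, 65.3 and 58.5 CPM in aged msn2∆msn4∆ against 144.7, 127 and 106.5 CPM in young, and fell by 0.94 ± 0.16 while RPS22B fell by 1.28 ± 0.15. In msn2∆ both fell, by 0.78 ± 0.15 (with TMM factors alone) and 1.39 ± 0.15, and in WT by 0.36 ± 0.15 and 1.17 ± 0.14, where library totals gave 0.16 for snR44 and the call was lost without young WT replicate 2 (-0.20), aged WT replicate 1 (-0.35) or aged WT replicate 3 (-0.28). snR38, in TEF4, which encodes an elongation factor subunit, rose in msn2∆ and WT as given above, whereas TEF4 fell by 0.40 ± 0.08 and 0.37 ± 0.08 with TMM factors and stood at 0.19 and 0.14 with library totals, which did not pass. snR191, in NOG2, a gene of large subunit assembly, fell by 0.83 ± 0.20 in msn2∆ with TMM factors alone, whereas NOG2 rose by 0.45 ± 0.09. snR54, in IMD4, fell by 0.64 ± 0.17 in msn2∆ with TMM factors alone, whereas IMD4 rose by 0.44 ± 0.09. snR18, in EFB1, passed in no strain with TMM factors, but library totals called it higher at least in msn2∆. EFB1 fell by 0.44 ± 0.08, 0.42 ± 0.08 and 0.59 ± 0.08 in msn2∆msn4∆, msn2∆ and WT with TMM factors. Library totals gave -0.01, 0.17 and -0.08 for EFB1. The snoRNA and host values come from the same libraries, and the difference between a snoRNA and its host was not tested; reads of an unspliced host and of the snoRNA cannot be told apart.

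**Figure D4:**
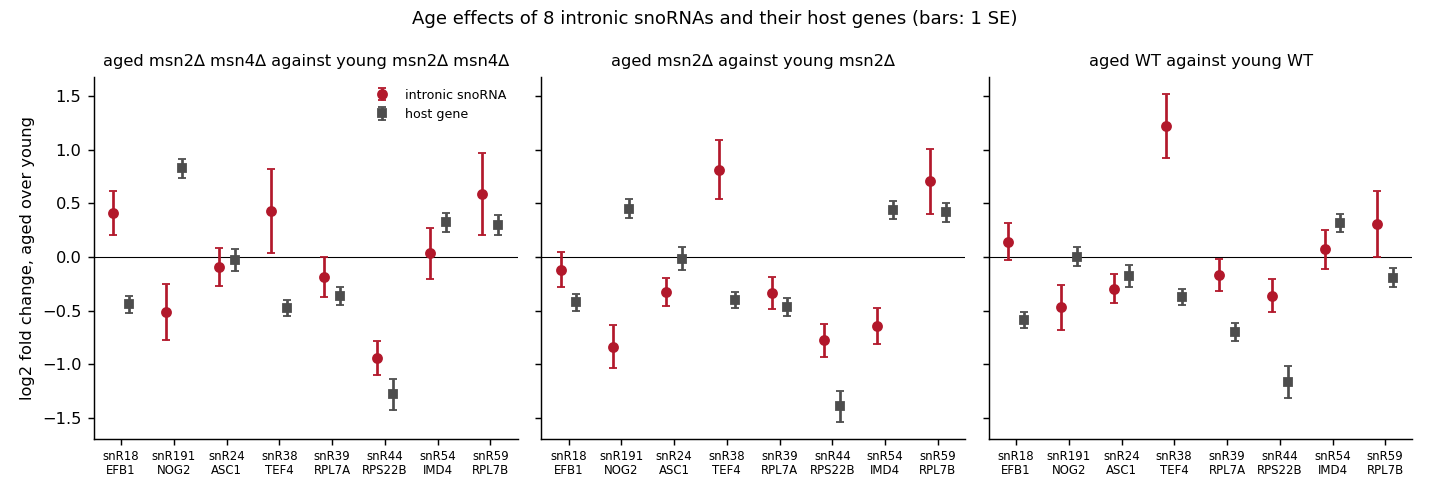
Log2 fold change of aged over young cells for 8 intronic snoRNAs (circles) and their host genes (squares) in msn2∆msn4∆ (left), msn2∆ (middle) and WT (right), with bars of 1 SE. In WT snR38 lies at 1.22 and its host TEF4 at -0.37, and snR44 lies at -0.36 and its host RPS22B at -1.17.

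A further 17 C/D snoRNAs are made from 5 transcripts that carry several each. With TMM factors none of these was called higher in aged cells, and 3, 12 and 7 were lower in msn2∆msn4∆, msn2∆ and WT, with medians of 0.03, -0.63 and -0.52. With library totals 5, 1 and 3 were higher and 2 lower in each strain, with medians of 0.46, -0.03 and 0.002. The cluster of snR72 to snR78 on chromosome XIII had log2 fold changes between -0.31 and 0.38 in msn2∆msn4∆, between -1.03 and -0.27 in msn2∆ and between -0.76 and -0.27 in WT, from counts as low as 3.08 in the aged msn2∆msn4∆ libraries.

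With TMM factors, the mRNAs for proteins that build and mature these RNAs were called in both directions. So were all features, of which 31.2%, 36.6% and 33.3% were higher and 29.9%, 33% and 30.6% lower in aged msn2∆msn4∆, msn2∆ and WT. Of the 8 snoRNA particle core proteins, 5 were higher and 1 lower in aged msn2∆msn4∆, 5 and 2 in aged msn2∆, and 4 and 2 in aged WT; with library totals 7 were higher in each strain and 0, 1 and 0 lower. NOP1, the methyltransferase of C/D particles, rose by 0.66 ± 0.11, 0.69 ± 0.11 and 0.60 ± 0.11, and NOP58, its scaffold, by 0.83 ± 0.11, 0.75 ± 0.11 and 0.47 ± 0.11. NOP10 of the H/ACA particle fell by 0.59 ± 0.12, 0.82 ± 0.12 and 0.52 ± 0.12, and with library totals in msn2∆ alone. Of 9 assembly factors, 6, 5 and 3 were higher and 1, 3 and 1 lower, and with library totals 8, 8 and 7 were higher and 1 lower in each strain. BCD1, needed for C/D snoRNAs, rose by 1.31 ± 0.14, 1.31 ± 0.13 and 0.91 ± 0.13, NAF1, needed for H/ACA snoRNAs, by 1.34 ± 0.14, 1.28 ± 0.13 and 0.65 ± 0.13, while TAH1 fell by 1.04 ± 0.14, 1.10 ± 0.13 and 0.95 ± 0.13. NRD1 and SEN1, which end transcription of snoRNA genes, rose by 0.82 ± 0.11, 1.26 ± 0.10 and 0.74 ± 0.10, and by 0.62 ± 0.12 in msn2∆msn4∆, 0.73 ± 0.12 in msn2∆ and 0.62 ± 0.12 in WT.

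The factors that tail and trim these RNAs in the nucleus were also called in both directions. Of 17 exosome and TRAMP genes, 10 were higher and 2 lower in aged msn2∆msn4∆, 6 and 5 in aged msn2∆, and 5 and 8 in aged WT, whereas library totals gave 15, 15 and 10 higher and none lower. Of all 6833 features, library totals called 4104, 4927 and 4753 higher and 827, 645 and 598 lower. RRP6, the nuclear exonuclease, rose by 0.77 ± 0.11, 0.55 ± 0.10 and 0.41 ± 0.10. PAP2, the poly(A) polymerase that tails these RNAs for degradation, fell by 0.30 ± 0.09, 0.76 ± 0.09 and 0.48 ± 0.09 with TMM factors, where library totals gave 0.13, -0.18 and 0.02, and TRF5, its relative, rose by 0.68 ± 0.09 in msn2∆msn4∆ and 0.47 ± 0.08 in msn2∆ and was -0.07 ± 0.08 in WT, where library totals gave 0.43. The 7 Sm proteins, which ring U1, U2, U4 and U5, had 6, 5 and 7 lower and none higher, with medians of -0.57, -0.71 and -0.83, and the 8 Lsm proteins, of which most ring U6, had 7, 7 and 8 lower, with medians of -1.18, -1.18 and -1.15. With library totals 2, 2 and 5 Sm and 7, 7 and 6 Lsm genes were lower. Of the 8 genes for end processing and termination of snoRNAs, 3, 2 and 3 were higher and 1, 1 and 2 lower, of 5 poly(A) tail factors 1, 2 and 1 higher and 2, 2 and 3 lower, and of 5 telomerase proteins 0, 2 and 1 higher and 1, 2 and 3 lower. With library totals these counts were 7, 8 and 6 higher and none lower for end processing, 3, 5 and 3 higher and none lower for tail factors, and 3, 4 and 2 higher and 1, 1 and 0 lower for telomerase proteins. LSM4 fell by 1.26 ± 0.16, 1.28 ± 0.16 and 1.28 ± 0.16.

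In young cells, most of the RNAs that differed between strains were higher in msn2∆ than in WT. Young msn2∆msn4∆ had 3 higher and none lower than young WT, where 37.7% of all features passed, 17.9% higher and 19.9% lower: snR33 by 0.63 ± 0.17, snR42 by 0.61 ± 0.19 and snR84 by 0.49 ± 0.16, of which the libraries of snR33 and snR84 overlapped. Each of these calls was lost without at least 1 library, snR33 without young msn2∆msn4∆ replicate 1 (0.38), snR42 without young WT replicate 3 (0.45) or young msn2∆msn4∆ replicate 3 (0.53), and snR84 without any of 4 libraries. The count itself was 6 without young WT replicate 1 or young msn2∆msn4∆ replicate 1 or 3, and 5 without young WT replicate 2. Young msn2∆ had 16 higher and none lower than young WT, where 30.5% of all features passed, 15% higher and 15.5% lower. The median over the 85 RNAs was 0.31. snR33 read 42.3, 58.4 and 49.0 CPM in young msn2∆ against 24.6, 29.2 and 23.3 CPM in young WT, and was higher by 0.96 ± 0.17 (edgeR adjusted p = 0.000359). snR86 was higher by 0.81 ± 0.16, snR54 by 0.85 ± 0.18, snR19 by 0.78 ± 0.18 and snR49 by 0.77 ± 0.15, with no overlap of libraries. The count of 16 was 10 without young WT replicate 1 or young msn2∆ replicate 1 and 9 without young WT replicate 3. Summed tRNA features were 342 to 408 CPM in young msn2∆ against 214 to 301 CPM in young WT, and their part in the result was not tested. Young msn2∆msn4∆ against young msn2∆ gave 2 lower, snR82 by 0.71 ± 0.15 and snR54 by 0.81 ± 0.18 (edgeR adjusted p = 0.0329 and 0.0499), where 0.454% of all features passed, 0.132% higher and 0.322% lower. Library totals made neither call, and neither held in a fit without any 1 of the 6 young libraries compared.

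Aged msn2∆msn4∆ had 10 higher and 6 lower than aged WT, where 36.3% of all features passed, 16.6% higher and 19.7% lower. Higher were LSR1 by 0.99 ± 0.16, SCR1 by 0.88 ± 0.21, RPR1 by 0.87 ± 0.18, snR36 by 0.82 ± 0.31, both U5 entries by 0.80 ± 0.24 and 0.78 ± 0.24, snR55 by 0.76 ± 0.29, NME1 by 0.75 ± 0.20, snR19 by 0.70 ± 0.18 and snR84 by 0.49 ± 0.18. All 3 of the RNAs other than snRNAs and snoRNAs, and 4 of 6 snRNA entries, were thus higher, U5 being counted as 2 entries. Lower were snR65, snR47, snR44, snR63, snR11 and snR87, by 0.97 ± 0.35, 0.71 ± 0.21, 0.50 ± 0.16, 0.48 ± 0.18, 0.48 ± 0.17 and 0.44 ± 0.16; library totals did not call snR11 and snR87. The count of 16 was 6 without aged WT replicate 2 and 7 without aged msn2∆msn4∆ replicate 2. The 18S rRNA levels given above also differed between the same groups, and their part was not tested. Aged msn2∆msn4∆ had 4 higher and none lower than aged msn2∆, where 24.8% of all features passed, 11.3% higher and 13.5% lower: snR55 by 0.92 ± 0.29, snR19 by 0.76 ± 0.18, LSR1 by 0.70 ± 0.16 and snR57 by 0.41 ± 0.15. Library totals called the first 3 of these higher, not snR57, and 6 other RNAs lower, where 293 of all 6833 features were higher and 1017 lower. The count of 4 with TMM factors was 2 without aged msn2∆ replicate 1 or aged msn2∆msn4∆ replicate 1 or 2. Aged msn2∆ had 6 higher and 2 lower than aged WT, where 30% of all features passed, 13.9% higher and 16% lower. snR13, snR50, snR40, snR84, snR3 and snR67 were higher by 0.39 to 0.77, and snR60 and snR47 were lower by 0.51 ± 0.18 and 0.53 ± 0.18. Library totals gave 19 of the 85 RNAs higher and none lower, where 1658 of all 6833 features were higher and 507 lower. The count of 8 with TMM factors was 2 without aged WT replicate 1 or aged msn2∆ replicate 3, and 4 without aged WT replicate 3 or aged msn2∆ replicate 1.

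The difference of age effects between strains was tested directly. Between msn2∆msn4∆ and WT, 7 entries, of which 2 are U5, had a higher and 1 a lower age effect, where 16.2% of all features passed, 7.17% higher and 8.99% lower. The 7 were snR17b, RPR1, LSR1, NME1, SCR1 and both U5 entries, and the lower one was snR63. RPR1 had age effects of 1.17 and 0.05, which differed by 1.12 ± 0.26 (edgeR adjusted p = 0.00493), and LSR1 of 1.09 and 0.15, which differed by 0.93 ± 0.22 (adjusted p = 0.00652). Both scalings called snR17b, NME1, RPR1 and LSR1 higher and snR63 lower (3.48% and 7.95% of all features). Between msn2∆msn4∆ and msn2∆, 5 had a higher age effect and none a lower one, where 6.18% of all features passed, 1.71% higher and 4.46% lower; both scalings called snR19, LSR1 and snR82 (0.41% of all features higher and 4.46% lower). snR19 had age effects of 1.38 and 0.02, which differed by 1.36 ± 0.25 (edgeR adjusted p = 0.00185), and LSR1 of 1.09 and -0.13, which differed by 1.22 ± 0.22 (adjusted p = 0.00123). Between msn2∆ and WT, 5 had a lower age effect and none a higher one, where 14.8% of all features passed, 7.54% higher and 7.23% lower: snR47, snR63, snR33, snR19 and snR49, all but snR19 by both scalings (2.61% of all features lower and 6.23% higher). Thinned to the smallest total, the msn2∆ minus WT difference of snR19 turned sign. For snR33, snR49, snR63 and snR19 the young msn2∆ libraries all lay above the young WT ones, so the difference of age effects includes the difference of young levels given above. The comparisons share libraries and are not independent of each other.

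The last counts rested on single libraries. Between msn2∆msn4∆ and WT the count of 8 was 4 without young msn2∆msn4∆ replicate 2, 5 without aged WT replicate 2 and 3 without aged WT replicate 3 or aged msn2∆msn4∆ replicate 2. Between msn2∆msn4∆ and msn2∆ the count of 5 was 3 without young msn2∆ replicate 1 or 3, young msn2∆msn4∆ replicate 2, aged msn2∆ replicate 1 or 2, or aged msn2∆msn4∆ replicate 1 or 2. Between msn2∆ and WT the count of 5 was 1 without young WT replicate 3 or aged msn2∆ replicate 1, 3 without aged WT replicate 1 or aged msn2∆ replicate 2, and 10 without aged msn2∆ replicate 3.

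**Figure D5:**
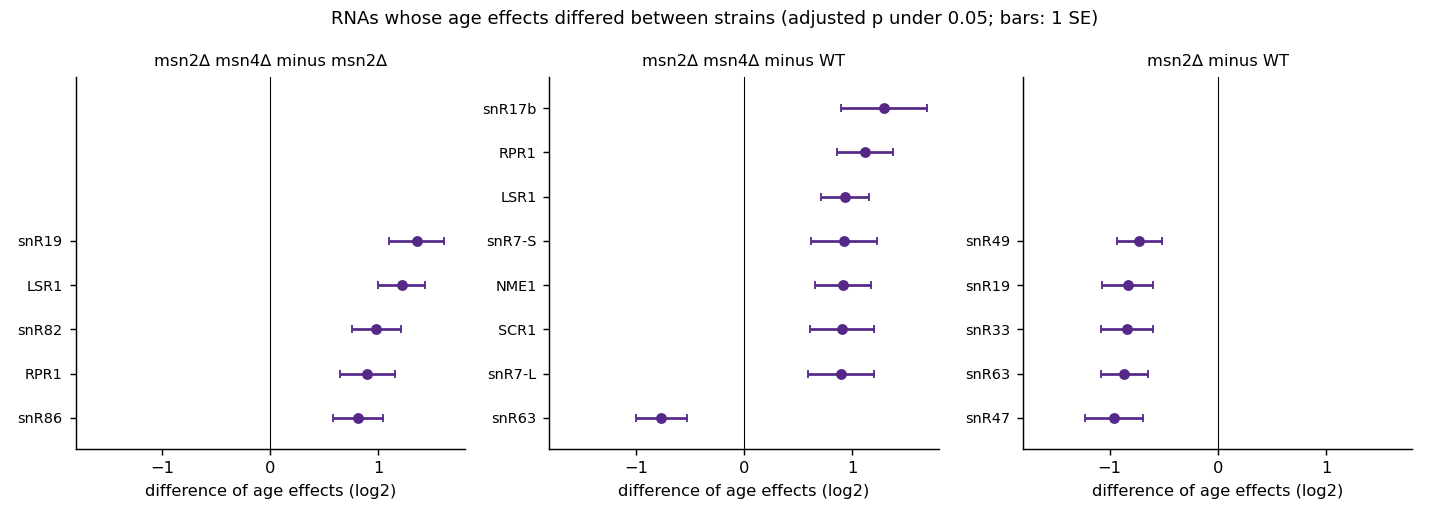
Difference of age effects (log2 fold change of aged over young in the first strain minus that in the second) for the RNAs that passed, with bars of 1 SE; msn2∆msn4∆ minus msn2∆ (left), msn2∆msn4∆ minus WT (middle) and msn2∆ minus WT (right). All 5 values on the left lie above 0, 7 of 8 in the middle do, and all 5 on the right lie below 0.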

How the data were processed

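Libraries of polyA RNA were made with a stranded kit (NEB Ultra II Directional) and sequenced in pairs, per the labels' protocols. The submitters' processing notes name bcl2fastq, cutadapt 2.6, STAR 2.7.6a, featureCounts of Subread 1.6.2 and build R64 (sacCer3); the counting options are not given in the sources used here. The authors deposited one estimated count per feature and library, made from reads aligned with STAR and assigned to features with featureCounts per the submitters' processing notes: 53.9% of the values of the 85 RNAs above 0 were not whole (tolerance 0.001), and 37 of the 85 held only multiples of 0.5, so reads that fit several places may be divided. Counts were rounded to whole numbers before the fit.

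From these, 6 group means were fitted to 18 libraries with edgeR 4.0.16 (R 4.3.3): TMM factors, filterByExpr (6833 of 7118 features kept), glmQLFit and glmQLFTest, 12 contrasts, Benjamini-Hochberg adjustment over all features tested, threshold 0.05. The SE of a log2 fold change is its size divided by the root of the F statistic. CPM use TMM-scaled totals. The fit was tested on simulated data. Alternatives were library totals, other size factors, other filters, a replicate block, thinning to the smallest total, fits to the compared groups alone, each library left out, and DESeq2 1.42.0.

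Classes, coordinates, rRNA sites and sequences come from RefSeq R64. Members and gene lists were chosen with earlier results of these data known. Values are given for the snRNAs, SCR1, RPR1, NME1, the snoRNAs of rRNA precursor cleavage, the intronic snoRNAs, the 5 most abundant per length, the 4 highest and 4 lowest called changes per contrast, and up to 4 genes of each protein list; further members that both scalings called, and those whose loss or gain of a call is described, were named after their values were seen. Features whose pattern is most like that of the summed members are not given, since the libraries fall into young and aged clusters. Replicate numbers were checked for pairing: of 45 pairs across groups 16 correlated above 0.1 (median -0.0306), and all 3 pairs did so between aged and young WT alone, where the fit with a replicate block called 46 of the 85 RNAs, against 48 without. Counting error alone limits RNAs with few counts.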

Additional observations from a re-analysis of the deposited data

Results flagged for a closer look

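The age effect differed between strains, by a test of the difference itself (edgeR quasi-likelihood test, log2 scale, SE), for the following RNAs. In msn2∆msn4∆ minus WT, the difference was 1.30 ± 0.40 for snR17b, 1.12 ± 0.26 for RPR1, 0.93 ± 0.22 for LSR1, 0.93 ± 0.31 for snR7-S, 0.91 ± 0.26 for NME1, 0.91 ± 0.30 for SCR1, 0.90 ± 0.30 for snR7-L and -0.76 ± 0.23 for snR63. In msn2∆msn4∆ minus msn2∆ it was 1.36 ± 0.25 for snR19, 1.22 ± 0.22 for LSR1, 0.98 ± 0.22 for snR82, 0.90 ± 0.25 for RPR1 and 0.81 ± 0.23 for snR86. In msn2∆ minus WT it was -0.96 ± 0.27 for snR47, -0.86 ± 0.22 for snR63, -0.84 ± 0.24 for snR33, -0.83 ± 0.24 for snR19 and -0.73 ± 0.21 for snR49. Thinned to the smallest total, the msn2∆ minus WT value of snR19 turned sign. By library totals, snR7-S, snR7-L and SCR1 in the first set were not called. Nor were RPR1 and snR86 in the second set, or snR19 in the last. The aged msn2∆msn4∆ libraries that enter the first 2 sets had the smallest totals and the highest CPM of 18S rRNA, and the part of either was not tested.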

How the results depend on the processing

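Numbers of the 85 RNAs called moved with depth and scaling. Thinned to the smallest total, the age comparison called 32 in msn2∆ and 22 in WT; msn2∆ against WT called 6 in young and 5 in aged cells, msn2∆msn4∆ against WT 1 in young cells, msn2∆msn4∆ against msn2∆ 0 in young and 2 in aged cells, and the differences of age effects 1 (msn2∆msn4∆ minus msn2∆), 1 (msn2∆msn4∆ minus WT) and 2 (msn2∆ minus WT). Library totals called 30 for age in msn2∆, 7 and 0 for young msn2∆msn4∆ against WT and msn2∆, 19 for aged msn2∆ against WT, 9 (3 higher and 6 lower) for aged msn2∆msn4∆ against msn2∆ and 3 for msn2∆msn4∆ minus msn2∆. Young msn2∆msn4∆ against msn2∆ gave 1 with other size factors (RLE) or no filter, and 0 with a replicate block, the compared libraries alone or no aged msn2∆msn4∆ libraries (an alternative chosen after seeing the data). The replicate block gave 3 for msn2∆msn4∆ minus msn2∆ and moved no count other than these 2 by over 1.5 times. Fits to the compared libraries alone called 17 for aged msn2∆ against WT, 7 for aged msn2∆msn4∆ against msn2∆, 9 for msn2∆ minus WT and 4 for msn2∆msn4∆ minus WT, and DESeq2 8 for msn2∆ minus WT.

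With 1 library left out, the age comparison called 22 to 35 in msn2∆msn4∆, 39 to 57 in msn2∆ and 35 to 46 in WT. For young cells the counts were 3 to 6 (msn2∆msn4∆ against WT), 0 to 1 (msn2∆msn4∆ against msn2∆) and 9 to 24 (msn2∆ against WT), for aged cells 6 to 13, 2 to 6 and 2 to 7, and for differences of age effects 3 to 11 (msn2∆msn4∆ minus WT), 3 to 7 (msn2∆msn4∆ minus msn2∆) and 1 to 10 (msn2∆ minus WT).

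Library totals turned the sign of the age change in WT for snR17a (0.37), snR44 (0.16), snR87 (0.15) and snR33 (0.0802), and in msn2∆ for LSR1 (0.46), snR128 (0.0233), snR17a (0.40), snR18 (0.47), snR24 (0.26), snR39 (0.24) and snR87 (0.14); thinning turned that of snR19 in msn2∆ minus WT (0.25). The summed level with library totals was 930.4 CPM in aged msn2∆msn4∆, 975.9 in aged msn2∆, 836.5 in aged WT, 950.2 in young msn2∆ and 709.1 in young WT; without snR44 it was 646.9 CPM in aged WT and 1004 CPM in young msn2∆. Of the values of named RNAs under all alternatives, 238 lost the call with the same sign, 32 gained it with the same sign, and 12 turned sign with a call in either fit; the remaining 1828 stayed on their side of the threshold, and some values without a call changed sign among them. The cause was not tested.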
